A study of Saccharomyces cerevisiae with 25 samples.

Results

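The cytosolic chaperone genes of Saccharomyces cerevisiae were followed through phosphate starvation as a set of 10 genes chosen by name from the 6650 named genes of the deposited table. The choice was made with earlier results of these data known. Of the 10 genes, 5 are known as stress-induced (HSP26, HSP42, HSP104, SSA4 and HSP82) and 5 as constitutive, that is abundant in growing cells (HSC82, SSA1, SSA2, SSB1 and SSB2). The cells were of the laboratory strain background BY4741 and carried the fusion pho84pr-YFP, a fluorescent reporter behind the PHO84 promoter, and pho85 damp, an allele made to lower the amount of the PHO85 kinase by altering its gene behind the stop codon. Libraries were taken after transfer to medium without phosphate every 15 min up to 360 min, and were grouped in windows of 8 consecutive libraries, called early up to 120 min, middle for the times 135 to 240 min and late from 255 min on, beside 1 library from high phosphate medium at 0 min. All 25 libraries share the reporter and the PHO85 allele. No time point was replicated, and neither an intact PHO85 strain nor a transfer to fresh high phosphate medium was analysed here, so the loss of phosphate, the change of medium and the time in culture cannot be told apart.

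Chaperones bind unfolded protein and hold, fold or release it. Hsp26 and Hsp42 are small heat shock proteins that catch unfolding proteins in aggregates, Hsp104 is the disaggregase that pulls such aggregates apart, the Ssa proteins are the general cytosolic Hsp70, the Ssb proteins are Hsp70 bound to translating ribosomes, and Hsp82 and Hsc82 are the inducible and the constitutive Hsp90. Genes of the inducible kind are known targets of Hsf1, which binds heat shock elements, and of Msn2 and Msn4, which bind stress response elements, while SSB1 and SSB2 are known to be regulated much as ribosomal protein genes are.

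All values are reads per 1000000 listed reads (RPM) or their log2. They are shares of the reads of a library, so a change in total RNA per cell is not visible in them. A gene has no value in a library where it drew fewer than 10 reads. Of the 25 libraries, 5 were shallow, with 767 to 81208 listed reads (at 45, 75, 90, 210 and 330 min), and the other 19 without phosphate had 169768 to 1981423, with a median of 603361. The 0 min library had 4954493. The 210 min library listed only 29 genes, and SSA1 was the only 1 of the 10 members among them. Where a call or an overlap late against early turns on a shallow library, the result without these libraries is given too. Other values include the shallow libraries unless the deeper ones, that is those not shallow, are named. The mating type a markers MFA1, MFA2, STE2, BAR1 and STE6, which BY4741 should express, were listed in 24, 24, 23, 19 and 18 libraries. The alpha factor genes MF(ALPHA)1 and MF(ALPHA)2 were listed in 3 and 0. The alpha-type genes STE3 and SAG1 were listed in 17 and 15 libraries, with at most 99 and 47 reads. The highest counts of the a markers ran from 288 reads for STE6 to 4486 for MFA2.

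The upstream sequences of 6 members are shown because these members span the 2 kinds of gene and the directions of change reported below: HSP104 and HSP82 of the stress-induced kind, SSA1, which sits among the constitutive genes by name, and SSA2, HSC82 and SSB1. Each window holds the bases 101 to 400 before the start codon, read 5′ to 3′ on the strand of the gene from the RefSeq R64 genome, and capitals mark matches to the heat shock element TTCNNGAANNTTC or the stress response element AGGGG on either strand, so CCCCT is a match on the other strand.
HSP104: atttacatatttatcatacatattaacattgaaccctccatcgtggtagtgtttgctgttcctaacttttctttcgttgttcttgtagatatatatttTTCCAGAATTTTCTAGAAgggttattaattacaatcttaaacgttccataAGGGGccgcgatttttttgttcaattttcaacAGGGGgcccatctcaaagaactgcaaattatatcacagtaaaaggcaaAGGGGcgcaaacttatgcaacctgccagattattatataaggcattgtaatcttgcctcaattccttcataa
HSP82: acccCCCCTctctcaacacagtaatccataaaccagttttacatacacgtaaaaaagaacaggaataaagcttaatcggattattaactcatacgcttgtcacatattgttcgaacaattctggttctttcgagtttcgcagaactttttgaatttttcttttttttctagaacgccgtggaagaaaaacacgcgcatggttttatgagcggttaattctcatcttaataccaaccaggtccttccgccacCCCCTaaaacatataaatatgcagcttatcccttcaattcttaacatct
SSA1: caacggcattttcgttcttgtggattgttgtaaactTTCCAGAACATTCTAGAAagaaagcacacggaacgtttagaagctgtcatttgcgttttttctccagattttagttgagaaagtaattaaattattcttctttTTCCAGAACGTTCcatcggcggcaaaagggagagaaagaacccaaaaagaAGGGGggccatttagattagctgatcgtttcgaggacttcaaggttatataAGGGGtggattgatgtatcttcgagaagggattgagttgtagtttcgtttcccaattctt
These windows lie at chrXII:88223-88522 on the plus strand for HSP104, chrXVI:98726-99025 on the minus strand for HSP82 and chrI:141532-141831 on the minus strand for SSA1. Each of the 3 windows has matches in capitals.
SSA2: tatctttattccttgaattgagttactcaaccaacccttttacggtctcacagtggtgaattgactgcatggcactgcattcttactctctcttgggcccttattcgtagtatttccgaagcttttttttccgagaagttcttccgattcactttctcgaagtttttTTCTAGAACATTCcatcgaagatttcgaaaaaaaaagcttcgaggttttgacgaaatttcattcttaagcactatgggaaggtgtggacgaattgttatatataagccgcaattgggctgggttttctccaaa
HSC82: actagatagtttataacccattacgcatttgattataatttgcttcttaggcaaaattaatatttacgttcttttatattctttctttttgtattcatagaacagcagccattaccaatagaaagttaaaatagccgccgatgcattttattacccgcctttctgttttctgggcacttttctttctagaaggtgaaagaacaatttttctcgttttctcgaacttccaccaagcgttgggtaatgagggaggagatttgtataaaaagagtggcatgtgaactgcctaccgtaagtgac
SSB1: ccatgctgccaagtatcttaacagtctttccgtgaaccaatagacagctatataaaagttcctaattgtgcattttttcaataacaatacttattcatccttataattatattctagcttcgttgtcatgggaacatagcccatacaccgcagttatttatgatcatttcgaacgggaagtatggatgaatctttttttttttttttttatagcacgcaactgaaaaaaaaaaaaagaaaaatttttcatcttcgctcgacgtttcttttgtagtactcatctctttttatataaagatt
These windows lie at chrXII:97586-97885 on the minus strand for SSA2, chrXIII:631955-632254 on the plus strand for HSC82 and chrIV:43665-43964 on the plus strand for SSB1. The HSC82 window reaches into the neighbouring gene RTP1 and that of SSB1 into PTP1. SSA2 has a single run in capitals, a heat shock element, while the HSC82 and SSB1 windows have none.

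In the wider windows of bases 101 to 600 before the start codon, AGGGG occurred at least once upstream of all 5 stress-induced members and of SSA1, and not upstream of HSC82, SSA2, SSB1 or SSB2. The windows of these last 4 genes reach into the neighbouring genes RTP1, POM33, PTP1 and MER1, so less of them lies between genes. Among the members with a match, only the HSP104 window reaches into a gene, ISA1. HSP26, HSP42, HSP104 and SSA4 held 3 matches each, and HSP82 and SSA1 held 2 each. Over the 5999 protein-coding genes with such a window, 35.2% held at least 1 match and 8.5% at least 2. The heat shock element as spelled above, with overlapping matches counted, occurred in 1.58% of all windows and upstream of 4 members, namely HSP42 and HSP104 (2 matches each), SSA1 (3) and SSA2 (1). The Pho4 motif CACGTG occurred in 6.68% of all windows and upstream of SSA1 alone among the members. A match describes letters and is not a site of binding, and a missing match says only that these exact letters are not in the window.

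**Figure D1:**
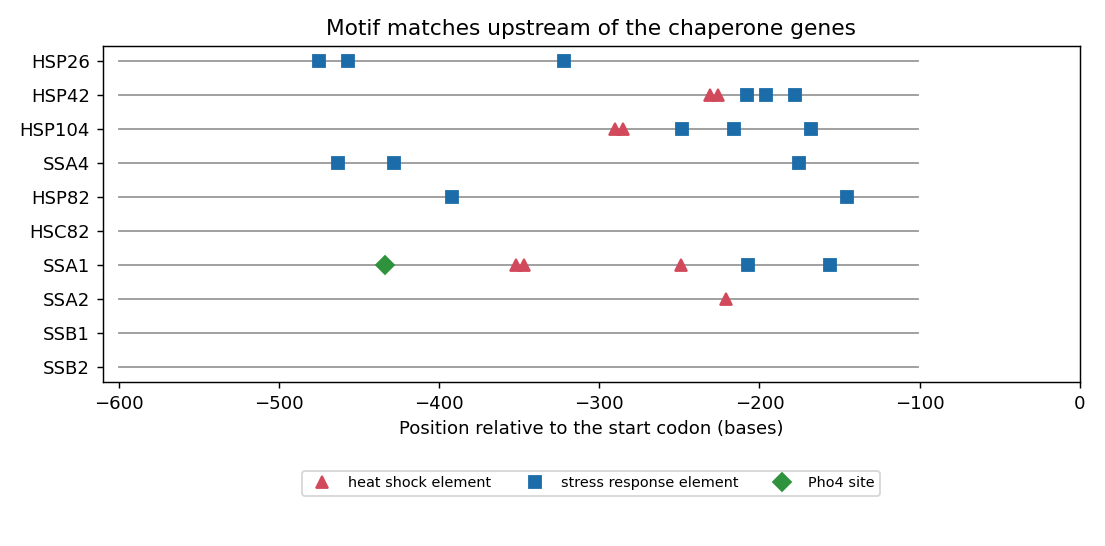
Motif matches upstream of the 10 chaperone genes. The horizontal axis gives the position relative to the start codon in bases, each grey line is the searched window of a gene from 600 to 101 bases before it, and symbols mark the heat shock element, the stress response element and the Pho4 motif on either strand. Stress response elements lie upstream of all 5 stress-induced genes and of SSA1, and upstream of none of the other 4 genes.

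The 2 kinds of chaperone gene moved apart through the time course. Late against early, 4 of the 5 stress-induced members rose (HSP26, HSP42, HSP104 and SSA4) and 4 of the 5 constitutive members fell (HSC82, SSA2, SSB1 and SSB2), by limma with Benjamini-Hochberg adjustment over the 4363 genes tested at a threshold of 0.05. Over all genes tested, 29.8% rose and 7.36% fell in this comparison (1300 and 321 genes), a split that was 1524 and 329 genes in the deeper libraries, and 672 and 683 genes when these were also centred on their medians. The median log2 change, late minus early, was 1.84 for the stress-induced and -1.16 for the constitutive members, beside 0.35 over all genes tested. In the deeper libraries 5 members rose, SSA1 being the added gene, and 4 fell. The counts were also 5 and 4 with the centring, which brought the median change of all genes to -0.02. Since windows of neighbouring times stand in for replicates, the p-values speak only of the spread among these libraries, which may be technical. In cultures measured as a whole, less RNA per cell and fewer cells with the transcript cannot be told apart.

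**Figure D2:**
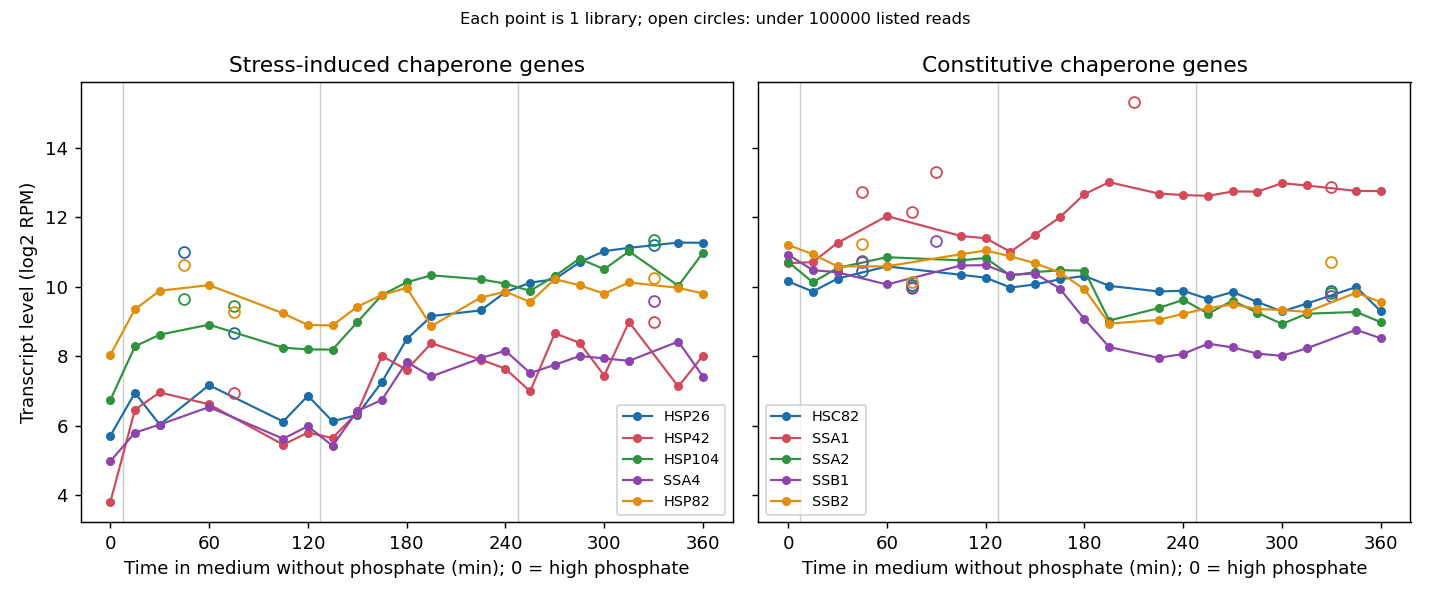
Transcript levels of the 5 stress-induced (left) and 5 constitutive (right) chaperone genes. The horizontal axis is the time in medium without phosphate in min, with 0 for high phosphate medium, and the vertical axis is the level in log2 RPM. Each point is 1 library, open circles are libraries under 100000 listed reads and grey lines bound the windows. HSP26 lay between 1110 and 2470 RPM in the late window, against 52.3 RPM at 0 min, while SSB1 and SSB2 dropped after 165 min.

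Among the small heat shock protein genes, HSP26 (chrII:382030-382674) had the largest change of the 10 members late against early. Its lowest, median and highest levels were 1110, 2151 and 2470 RPM over 8 late libraries, against 65.5, 123 and 2048 RPM over 7 early libraries. The library at 0 min had 52.3 RPM. The early and late levels overlapped only through the shallow 45 min library, whose 2048 RPM rests on 38 reads. In the deeper libraries every late level was above every early one. HSP26 was 9.99-fold higher in the late than in the early window (log2 change 3.32, SE 0.64, limma adjusted p = 0.000334). It was 18.2-fold higher in the deeper libraries alone (log2 change 4.19, adjusted p = 2.59e-05). HSP26 was the single member that rose in the late against the middle window (log2 change 2.79, adjusted p = 0.0166), where 3.9% of all genes rose and 1.65% fell. Without the 150 min library it did not pass (log2 change 2.50, adjusted p = 0.0534). Its level reached 2470 RPM at 345 min.

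HSP42 (chrIV:806621-807748), the other small heat shock protein gene, had its lowest, median and highest levels at 127.1, 297 and 507 RPM over 8 late libraries, against 43.9, 93.2 and 124 RPM over 6 early libraries. The windows did not overlap, although the late 255 min library at 127.1 RPM stood close to the early 30 min library at 124 RPM. The change was 3.25-fold (log2 1.70, SE 0.40, limma adjusted p = 0.00203). The 0 min level of 13.9 RPM lay below each of the 21 later libraries that list the gene. At 15 min HSP42 already stood at 88.2 RPM.

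HSP104 (chrXII:88623-91349), the disaggregase gene, had its lowest, median and highest levels at 942, 1620 and 2588 RPM over 8 late libraries, against 293, 393 and 808 RPM over 7 early libraries. No early library that lists the gene reached the lowest late level. The shallow 90 min library could not show this, since its lowest listable level was 2016 RPM. The change was 3.58-fold (log2 1.84, SE 0.31, limma adjusted p = 3.82e-05). HSP104 stayed above the midpoint of its early and late levels from 165 min on, the earliest of the 10 members. In the deeper libraries it had also risen in the middle window (log2 change 1.22, adjusted p = 0.0204), which was not called with the shallow libraries included.

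SSA4 (chrV:364589-366517), the stress-induced cytosolic Hsp70 gene, had its lowest, median and highest levels at 171, 239 and 773 RPM over 8 late libraries, against 49.5, 63.4 and 92.9 RPM over 5 early libraries. The windows did not overlap. The highest value, at 330 min, comes from a shallow library with 23 reads of the gene, and the next highest late level was 343 RPM. SSA4 was 4.19-fold higher in the late window (log2 2.07, SE 0.38, limma adjusted p = 0.000206). In the deeper libraries the rise was 3.6-fold (limma adjusted p = 0.000341).

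HSP82 (chrXVI:96496-98625), the inducible Hsp90 gene, was the stress-induced member with no call in this comparison when all libraries were weighted alike. Its lowest, median and highest levels were 754, 1027 and 1210 RPM over 8 late libraries, against 477, 652 and 1563 RPM over 7 early libraries. The windows overlapped, also without the shallow 45 min library that holds the highest early value. The log2 change was 0.36 (SE 0.24, limma adjusted p = 0.241), and -0.07 when ribosomal protein genes were left out of the scaling. With quantile normalization of the deeper libraries it was 0.78 (adjusted p = 0.0652). Of the settings run, only limma arrayWeights, which weights libraries by their spread, gave a call (0.46, adjusted p = 0.0264). The 0 min library had 263 RPM, below each of the 22 later libraries that list HSP82, and at 30 min the level was already 943 RPM.

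Of the constitutive members, SSB1 had the largest change, and both ribosome-bound Hsp70 genes fell. SSB1 (chrIV:44065-45906) had its lowest, median and highest levels at 258, 317 and 844 RPM over 8 late libraries, against 1006, 1494 and 2538 RPM over 8 early libraries. The windows did not overlap, and SSB1 was 4.09-fold lower in the late window (log2 change -2.03, SE 0.33, limma adjusted p = 2.45e-05). SSB2 (chrXIV:252059-253900) had 619, 694 and 1677 RPM in the late window, against 1125, 1957 and 2419 RPM over 7 early libraries, and was 2.24-fold lower (log2 change -1.16, SE 0.29, adjusted p = 0.00236). For SSB2 the windows overlapped only through the shallow late library at 330 min. The highest early level of SSB1 is from the shallow 90 min library, with 12.6 reads. In the deeper libraries SSB1 was 4.35-fold and SSB2 2.56-fold lower. SSB1 was also the member that fell in the middle against the early window (log2 change -1.38, adjusted p = 0.0272), where 3.19% of all genes fell and none of the stress-induced members rose, beside 3.9% of all genes that did. This call was lost without the library at 105, 120, 180, 195, 225 or 240 min (adjusted p up to 0.0776), with quantile normalization (0.102) and with windows of 6 libraries (0.0736). SSB1 stood at 307 RPM at 195 min, against 1332 RPM at 150 min.

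SSA2 (chrXII:95566-97485), a constitutive Hsp70 gene, had its lowest, median and highest levels at 487, 604 and 908 RPM over 8 late libraries, against 1011, 1693 and 1845 RPM over 7 early libraries. The windows did not overlap, and SSA2 was 2.39-fold lower in the late window (log2 change -1.26, SE 0.24, limma adjusted p = 0.00016). HSC82 (chrXIII:632355-634472), the constitutive Hsp90 gene, had 624.5, 778 and 1018 RPM in the late window, against 929, 1225 and 1534 RPM over 7 early libraries. It was 1.54-fold lower (log2 change -0.63, SE 0.18, adjusted p = 0.00719), with 6 of 8 late libraries below all early ones. This call was lost under quantile normalization (adjusted p = 0.551) and with windows of 6 libraries (adjusted p = 0.0549).

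SSA1 (chrI:139503-141431), placed with the constitutive genes, was abundant at 0 min as they were, but its mean lay higher in the late than in the early window. The other 4 constitutive genes lay lower. SSA1 levels had a wide early range. The lowest, median and highest levels of SSA1 were 6270, 6900 and 8058 RPM over 8 late libraries, against 1671, 3499 and 10082 RPM over 8 early libraries. The 0 min library had 1636 RPM. All 24 libraries without phosphate were above the 0 min level. The early window held the shallow 45 and 90 min libraries at 6769 and 10082 RPM, which overlapped with the late levels, while in the deeper libraries every late level was above every early one. With all libraries the log2 change, late minus early, was 0.92 (SE 0.41, limma adjusted p = 0.0798), short of the threshold. It rose 2.66-fold in the deeper libraries (log2 change 1.41, SE 0.27, adjusted p = 0.000195), and the call was also made without the 90 min library alone (log2 change 1.12, adjusted p = 0.0297) or without the 210 min library alone (log2 change 0.92, adjusted p = 0.0215). SSA1 is therefore named below apart from the other 4 constitutive genes.

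**Figure D3:**
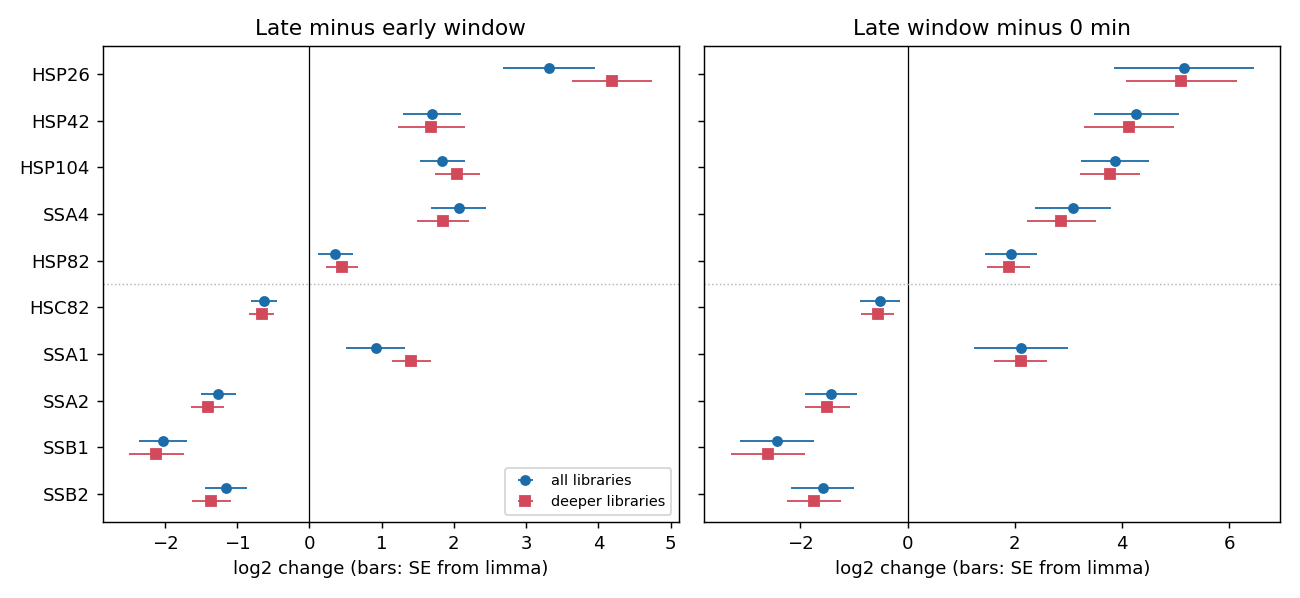
Changes of the 10 chaperone genes, late minus early window (left) and late window minus 0 min (right). The horizontal axis is the log2 change and bars are the SE from limma. Circles use all libraries and squares the deeper ones, and the dotted line parts stress-induced genes (top) from constitutive ones. SSA1 lies on the side of the stress-induced genes in both panels, at 0.92 and 2.12 with all libraries.

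Against the single library at 0 min, all 5 stress-induced members were higher in the late window and 2 constitutive members, SSA2 and SSB1, were lower, where 15.1% of all genes were higher and 4.35% lower (660 and 190 genes, and 365 and 441 in the deeper libraries centred on their medians). With all libraries the folds were 35.6 for HSP26 (limma adjusted p = 0.0099), 19.3 for HSP42 (0.00142), 14.6 for HSP104 (0.000263), 8.5 for SSA4 (0.00542) and 3.81 for HSP82 (0.00758). Thus HSP82, which did not pass late against early, did pass against 0 min. SSB1 was 5.39-fold lower (log2 change -2.43, adjusted p = 0.0162). SSA2 had a log2 change of -1.43 (adjusted p = 0.038), which passed the threshold no longer without the late library at 300 min (adjusted p = 0.052), 315 min (0.05) or 360 min (0.0506). SSA1, at a log2 change of 2.12 (adjusted p = 0.0851), and SSB2, at -1.58 (0.0582), passed in the deeper libraries alone (0.0042 and 0.0139). The spread of the 0 min group cannot be measured from 1 library and is assumed to be that of the windows. The comparisons of the late window with 0 min and with the early window share the late libraries.

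Early against 0 min, no member passed the test in limma, where 0.229% of all genes were higher and 0 lower. At an unadjusted p under 0.05 there were 3 members, beside 132 of the 4363 genes tested, and the other settings of limma gave 0 called members too. The largest early change was that of HSP42 (log2 2.57, adjusted p = 0.708), followed by HSP104 (2.03, adjusted p = 0.671). With a single library on one side this comparison has low power, so it does not show that the levels were alike. A smooth curve of time with 4 degrees of freedom, which uses no windows, passed for 8 of the 10 members, beside 40.6% of all genes. The members that did not pass were HSP82 (adjusted p = 0.135) and SSA1 (0.0992), and SSB1 had the smallest adjusted p, 3.58e-08.

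In the deeper libraries the members crossed the midpoint of their early and late levels for good at different times. HSP104 did so at 165 min, SSA4, SSA1, SSB1 and SSB2 at 180 min, HSP26 and SSA2 at 195 min, HSP42 and HSP82 at 270 min and HSC82 at 360 min. The fall of the SSB genes and the rise of SSA1 and SSA4 thus stood at the same sampled time. HSP42, HSP82 and HSC82 crossed more than once. HSP42 was back below its midpoint at 255 min, and HSC82, below its own from 225 to 315 min, was above it again in the single library at 345 min. For HSP82 the levels were 943 RPM at 30 min, 1057 RPM at 60 min, 473 RPM at 135 min and 1192 RPM at 270 min. Each time is 1 library, so the times carry no error.

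Ratios within a library do not depend on how libraries are scaled. HSP82/HSC82 and SSA4/SSA2 set an inducible gene beside a constitutive relative. SSA1/SSA2 and SSB1/SSB2 compare genes within the constitutive group. HSP104/HSC82 sets the disaggregase gene beside an Hsp90 gene, which is not its relative. All 5 ratios computed differed between the late and the early window by an exact two-sided permutation test, with Benjamini-Hochberg adjustment over the 5. They rest on the same libraries and windows as the changes of single genes above, so they are no separate support for those changes. HSP82/HSC82 had a log2 ratio of 0.34 ± 0.26 in late libraries (SD, n = 8), against -0.64 ± 0.50 in early libraries (SD, n = 7), a difference of 0.98 (exact p = 0.000932, adjusted p = 0.00117). In words, HSP82 reads went past those of HSC82 on average, and the ratio at 0 min was -2.11. The ranges overlapped, with a lowest late ratio of -0.09 and a highest early ratio of 0.16.

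For SSA1/SSA2 the log2 ratio was 3.51 ± 0.33 in late libraries (SD, n = 8), against 1.13 ± 0.68 in early libraries (SD, n = 7), a 5.18-fold difference with no overlap (exact p = 0.000311, adjusted p = 0.000518). At 0 min the pair had given about equal reads, with a log2 ratio of -0.04. For SSA4/SSA2 it was -1.22 ± 0.53 in late libraries (SD, n = 8), against -4.62 ± 0.36 in early libraries (SD, n = 5), a 10.5-fold difference (exact p = 0.00155). SSA4 reads were nevertheless still below SSA2 reads in every deeper late library, the highest log2 ratio there being -0.85 at 345 min. The shallow 330 min library had -0.23, from 23 reads of SSA4 against 27 of SSA2, too few to order the genes. HSP104/HSC82 was 0.98 ± 0.64 in late libraries (SD, n = 8), against -1.49 ± 0.58 in early libraries (SD, n = 7), a 5.53-fold difference (exact p = 0.000311).

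The deposited ratio SSB1/SSB2 went down, subject to the division of reads between the near-identical SSB genes described below. It was -1.13 ± 0.13 in late libraries (SD, n = 8), against -0.37 ± 0.16 in early libraries (SD, n = 7), a 1.69-fold lower ratio (exact p = 0.000311). The 0 min ratio was -0.28. Neighbouring times are not independent draws, so each of these p-values describes these libraries.

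**Figure D4:**
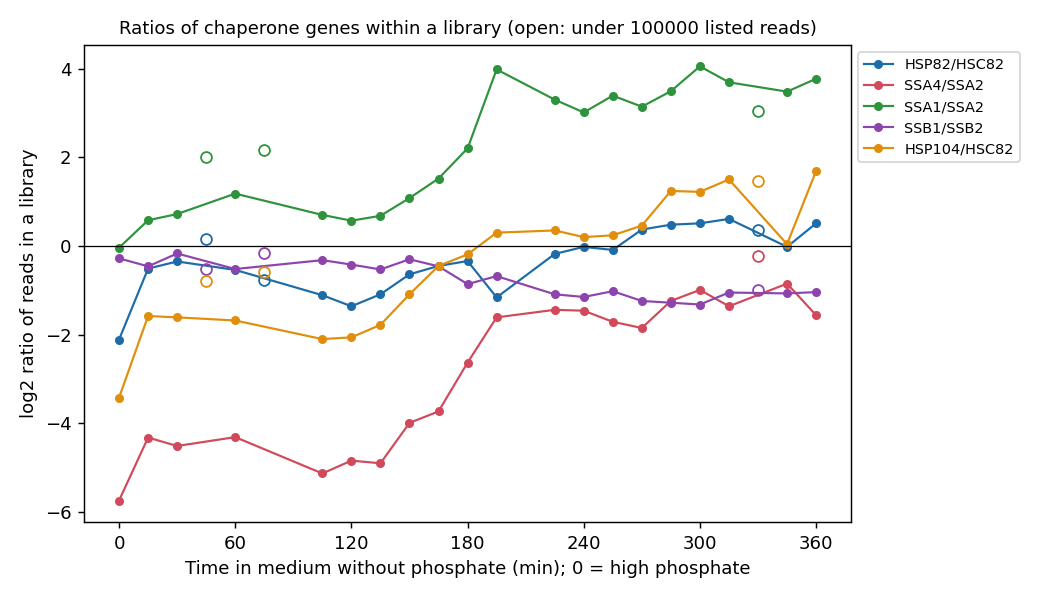
Within-library log2 ratios of reads for 5 pairs of chaperone genes. The horizontal axis is the time in medium without phosphate in min, with 0 for high phosphate medium, each point is 1 library and open circles are libraries under 100000 listed reads. SSA1/SSA2 lay between 3.04 and 4.05 in the late libraries, against -0.04 at 0 min, and SSB1/SSB2 lay between -1.32 and -0.99 there.

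The ratios of near-identical copies depend on how reads common to both were counted. Coding sequences were 92.4% identical between HSP82 and HSC82, 96.8% between SSA1 and SSA2 and 97.4% between SSB1 and SSB2, and of the stretches of 50 bases in the first-named gene of each pair, 6.4%, 57.9% and 43.2% occurred unchanged in the other. In the deposited values HSP26, HSP42, HSP104 and SSA4 came out as whole reads in every library that lists them, within 0.01 reads, while SSB1 and SSB2 did so in 0 libraries. Their sum was whole in 23 of 23 libraries, as was that of HSP82 and HSC82, and SSA1 with SSA2 was whole or in steps of 0.5 reads in 23 of 23. The sum of SSA1 and SSA2 was whole in 12 of these libraries. How reads common to both copies were assigned is not given, and whether any were divided with a further locus was not tested. The single levels of these 6 genes are for that reason uncertain.

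The sums do not depend on how reads were divided between the copies of a pair. SSB1 with SSB2 had a log2 RPM of 10.16 ± 0.50 in late libraries (SD, n = 8), against 11.61 ± 0.33 in early libraries (SD, n = 7), 2.73-fold lower (exact permutation p = 0.000622, adjusted over the 3 sums 0.00186). SSA1 with SSA2 had 12.92 ± 0.11 in late libraries, against 12.25 ± 0.50 in early ones, 1.59-fold higher (exact permutation p = 0.0028, adjusted 0.0042). HSP82 with HSC82 had 10.81 ± 0.21 in late libraries, against 10.99 ± 0.34 in early ones, a difference of -0.17 that did not pass (exact permutation p = 0.261). So in RPM the reads of the Ssb pair fell, those of the Ssa pair rose and those of the Hsp90 pair showed no detectable shift. The ratio within the Hsp90 pair turned. Unlike a ratio, a sum depends on how libraries are scaled, and the sums were not tested under another scaling. With median centring of the deeper libraries the log2 change was 0.05 for HSP82 and -1.06 for HSC82. With scaling outside ribosomal protein genes it was 0.45 for SSA1 and -1.68 for SSA2.

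Per coding length, the order of the members was rearranged. In the late window the deeper libraries gave a median of 3572 RPM per kb for SSA1 (range 3250 to 4178) and 3227 for HSP26 (1720 to 3830), whose ranges overlapped. Far below them came HSP104 at 532, HSP82 at 470, SSB2 at 363, HSC82 at 357 and SSA2 at 312 RPM per kb, then HSP42 at 230, SSB1 at 166 and SSA4 at 121 RPM per kb. From HSP104 down, each gene's range overlapped that of the next. At 0 min SSB2 led with 1276 RPM per kb, followed by SSB1 with 1053, SSA2 with 875 and SSA1 with 848, and HSP26 stood at 81.0 and HSP42 last at 12.4.

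As a share of listed reads in the deeper libraries, the stress-induced members together took a median of 0.4997% in the late window (range 0.312% to 0.615%), against 0.123% in the early window (0.101% to 0.187%). They took 0.0467% at 0 min. The constitutive members took a median of 0.956% in the late window (0.867% to 1.01%), against 0.936% in the early window (0.710% to 1.02%), and 0.874% at 0 min. The steady sum of the constitutive group therefore held 4 genes with lower levels and SSA1 with a higher level.

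**Figure D5:**
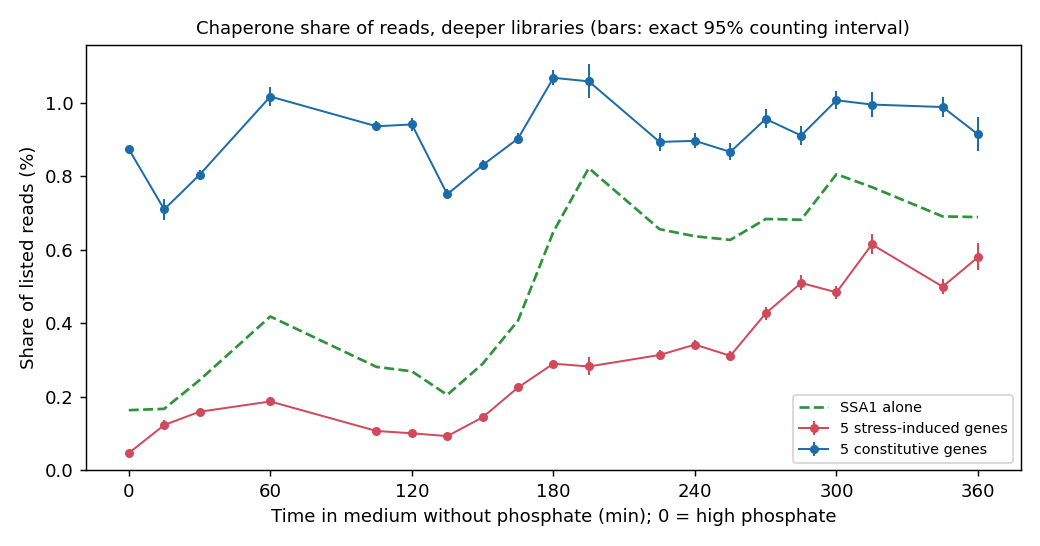
Share of listed reads, in percent, taken by the 5 stress-induced and the 5 constitutive chaperone genes in the deeper libraries. The horizontal axis is the time in medium without phosphate in min, with 0 for high phosphate medium, bars are exact 95% intervals that cover counting error only and the dashed line is SSA1 alone. The stress-induced share lay between 0.312% and 0.615% in the late window, above all early libraries, while the constitutive share lay between 0.867% and 1.01%.

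Among chaperone genes outside the 10 members, 3 of 12 partners of cytosolic Hsp70 rose late against early and 1 fell, shares near the 29.8% and 7.36% of all genes, with a median log2 change of 0.20 beside 0.35 for all genes. SSE2, an inducible exchange factor for Hsp70, rose 4.25-fold (limma adjusted p = 8.26e-06), the J-protein gene APJ1 1.89-fold (0.0296) and SSA3, another inducible Hsp70 gene, 1.74-fold (0.012), while YDJ1, the main J-protein gene, was 1.53-fold lower (0.00705). Of 4 tested genes of the ribosome-associated and nascent chain complexes, which work beside Ssb at the ribosome, 3 fell and none rose: EGD2 by 1.77-fold (0.00207), EGD1 by 1.69-fold (0.00517) and ZUO1 by 1.41-fold (0.0255). SSB1 and SSB2 fell too.

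Other folding machines had few calls late against early, beside 29.8% of all genes that rose and 7.36% that fell. The share that rose was below 29.8% in each list. Median log2 changes were 0.04 (Hsp90 co-chaperones), -0.20 (chaperonin and prefoldin), 0.23 (endoplasmic reticulum) and -0.23 (mitochondrial), beside 0.35 for all genes. Of 12 Hsp90 co-chaperone genes, SGT1 rose 1.56-fold (limma adjusted p = 0.0498) and the phosphatase gene PPT1 was 2.71-fold lower (0.00028), and the other 10 did not pass. Of 14 chaperonin and prefoldin genes only YKE2, a prefoldin subunit, passed (1.47-fold lower, adjusted p = 0.00616). Of 9 tested endoplasmic reticulum genes, MPD1 rose 1.76-fold (0.0192) and CNE1 1.61-fold (0.0295). Of 9 tested mitochondrial genes, HSP78, a mitochondrial relative of HSP104, rose 2.33-fold (0.00104) and the chaperonin gene HSP60 was 1.61-fold lower (0.00213).

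Of 19 tested general stress genes known as targets of Msn2 and Msn4, 17 rose late against early and none fell. Over all genes tested, 29.8% rose and 7.36% fell. The median log2 change was 2.09 for the list, beside 0.35 for all genes. Like the members, the list was chosen with earlier results of these data known. CTT1, the cytosolic catalase, was 25.2-fold higher (limma adjusted p = 5.4e-05), the stress gene DDR2 15.4-fold (2.37e-06) and the aldehyde dehydrogenase gene ALD3 14.5-fold (6.75e-05). This list also holds SSE2. HSF1 itself, the heat shock factor gene, had a log2 change of 0.58 (adjusted p = 0.0811), and MSN2 and MSN4 were listed in 9 and 12 libraries and were not tested. Over all tested genes with an upstream window, 41.3% of the 351 with at least 2 AGGGG matches rose late against early, beside 33.8% of the 1083 with 1 match and 25.0% of the 2567 with none. The heat shock element showed no such order, with 5 of 16 genes higher at 2 or more matches, 12 of 60 at 1 match and 1137 of 3925 (29.0%) at none. Members are among these genes, and neither motif was tested.

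Finally, the genes whose levels ran most like each member were taken by Pearson correlation of log2 RPM over the 20 deeper libraries and 2475 genes, as a description, since all points share the time course and the scaling of their library. HSP26 ran closest to YMR175W-A and SIP18 (r = 0.987 and 0.986), HSP42 to HSP78 and TPS2 (0.963 and 0.948) and HSP104 to GPM2 and HSP78 (0.980 and 0.977). SSA4 ran closest to YNL208W and NPC2 (0.976 and 0.971). SSA1 ran closest to HSP12, a general stress gene, and CAB5 (0.968 and 0.966), and its r was 0.94 with SSA4, 0.94 with HSP104 and -0.78 with SSA2. SSB1 ran closest to the ribosomal protein genes RPL11B and RPL4A (0.991 and 0.990), SSB2 to SSB1 and RPL4A (0.983 and 0.982) and SSA2 to TEF2, a translation elongation factor gene, and RPL9B (0.956 and 0.934). The Hsp90 genes had looser neighbours, HSP82 with YJL133C-A and AIM7 (0.874 and 0.842) and HSC82 with MTC7 and SSA2 (0.853 and 0.849), and r between HSP82 and HSC82 was -0.26.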

How the data were processed

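RNA of 25 libraries was measured by sequencing of cDNA made from total RNA on an Illumina instrument, per the labels. The submitters' processing notes name Bowtie and the genome build R64. For the counter, the versions and the use of strand, nothing is given in the sources used here. The deposited values are log2 RPM made by the authors. In each library they sum to 1000000 on the linear scale, and the lowest value matches 10 reads, which set the listed reads. With that, 70.7% to 95.3% of the values of a library were whole within 0.01 reads. A normalization to the first time point, which the labels mention, was not seen in the values. Libraries under 100000 listed reads were called shallow. Of 6701 rows, 6650 were named, and 1 of the 2 that share a symbol was left out.

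Windows of 8 consecutive libraries were compared with limma 3.58.1 in R 4.3.3, a means model with the 0 min library as a group of 1, trended robust variances, unlisted values left out and Benjamini-Hochberg adjustment at 0.05. Tested genes had a mean of 10 RPM or more, were listed at 0 min and had values in 4 or more libraries per window. All 10 members passed. The planned branch for counts did not apply. Read counts and levels in RPM were derived from the log2 values, and intervals of 95% cover counting error only. Ratios and sums were tested by exact permutation with scipy 1.17.1. The limma step was tested on simulated data.

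The members and lists were chosen with earlier results of these data known. Beside the members, the text names of each list up to 3 genes per direction with the largest change late against early among those called, the genes HSF1, MSN2 and MSN4, and for each member the 2 genes with the highest correlation. The share of promoters with a motif was counted over 5999 genes of the RefSeq R64 annotation.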

Additional observations from a re-analysis of the deposited data

Results flagged for a closer look

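Within the 30 combinations of member and window examined, 4 held a library that stood far from the other libraries of its window, and chance gives about 1 such window in 20. All 4 were in shallow libraries. SSA4 in the late window was highest at 330 min, at 9.59 log2 RPM from 23 reads, and the next library had 8.42. SSB1 was highest there too, at 9.72 log2 RPM from 25.1 reads, and the next had 8.76. SSB2 stood at 10.71 log2 RPM at 330 min from 49.9 reads, and the next had 9.83. SSA1 in the middle window was highest at 210 min, at 15.30 log2 RPM from 31 reads in a library that lists 29 genes, and the next had 13.01.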

How the results depend on the processing

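Late against early, the counts of called members (4 higher, 4 lower) stayed within 1.5 times under leaving out the shallow libraries, median centring, quantile normalization, scaling outside ribosomal protein genes, limma arrayWeights, both filters and windows of 6 libraries. They were 1 and 1 with unlisted values set to 10 reads, and 0 and 0 on log2(RPM + 1) with unlisted values as 0. Both fill the shallow libraries, with lowest listable levels of 2016 RPM at 90 min (early window) and 13046 RPM at 210 min (middle window). In this comparison the 210 min library enters the spread only. On log2(RPM + 1) HSC82 (0.66), SSA2 (0.06) and SSB2 (0.19), which have no value at 90 min, turned sign. HSP82 was -0.07 with scaling outside ribosomal protein genes, and was called higher with limma arrayWeights (0.46, adjusted p = 0.0264). Counts over all genes, 1300 higher and 321 lower late against early, were 672 and 683 with centring, 481 and 799 with scaling outside ribosomal protein genes, 459 and 533 with quantile normalization, 500 and 278 with a mean of at least 100 RPM, 580 and 245 with windows of 6 libraries, 24 and 139 with 10 reads and 5 and 0 on log2(RPM + 1). Over all settings they ran from 0 to 929 higher and 0 to 386 lower middle against early, 0 to 487 and 0 to 220 late against middle, 0 to 12 and 0 early against 0 min, and 0 to 809 and 0 to 441 late against 0 min.

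Middle against early (0 higher, 1 lower), the member counts were 3 and 2 without the shallow libraries, 1 and 3 with centring, 1 and 0 with quantile normalization, 5 and 3 with arrayWeights and 1 and 2 with a mean of at least 100 RPM. The lower count was 2 with scaling outside ribosomal protein genes and 0 with 10 reads, log2(RPM + 1) or windows of 6 libraries. Over all 4363 genes tested middle against early, 170 and 139 were called, and 406 and 114 without the shallow libraries. The counts were 133 and 136 with centring, 88 and 1 with quantile normalization and 929 and 386 with arrayWeights. They were 75 and 275 with scaling outside ribosomal protein genes, and 131 and 202 of 1596 with a mean of at least 100 RPM. There HSP82 turned to 0.01 without the shallow libraries, 0.20 with quantile normalization, 0.20 with arrayWeights and 0.23 with 10 reads, and HSC82 to 0.10 with quantile normalization and 0.16 with 10 reads. Late against middle (1 higher, 0 lower), the lower count was 1 without the shallow libraries and 2 with centring, the higher count 2 with quantile normalization, 2 with a mean of at least 100 RPM and 0 on log2(RPM + 1), and the counts 3 and 4 with arrayWeights. Over all genes late against middle, the counts were 170 and 72, and 276 and 131 without the shallow libraries. They were 125 and 193 with centring, 78 and 220 with quantile normalization and 487 and 199 with arrayWeights. HSP42 (-0.08) and HSP82 (-0.05) turned with 10 reads, HSC82 (0.84), SSA2 (0.58), SSB1 (0.49) and SSB2 (0.98) on log2(RPM + 1), and SSA1 (-0.03) with windows of 6 libraries. Early against 0 min, HSC82 turned to -0.04 with centring, -0.05 with quantile normalization and -1.18 on log2(RPM + 1), and SSA4 to -1.26 there. Late against 0 min (5 higher, 2 lower), the lower count was 4 with centring, 1 with quantile normalization and 1 with windows of 6 libraries, and the counts were 1 and 0 with 10 reads and 0 and 0 on log2(RPM + 1). The causes were not tested.

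Leaving out 1 library at a time gave 4 to 5 higher and 4 lower members late against early, 0 to 3 and 0 to 2 middle against early, 0 to 3 and 0 to 1 late against middle, and 5 to 6 and 1 to 3 late against 0 min. HSP82 middle against early ran from -0.24 to 0.05, the highest value coming without the 45 min library, and SSA1 late against middle from -0.03, without the 135 min library, to 0.58. The 5 ratios and 3 sums kept their direction and their side of the threshold under the alternatives run for them. These were leaving out the shallow libraries, windows of 6 libraries, leaving out 1 library at a time and a floor of 100 reads. The sums, which depend on scaling, were not run under another scaling. For SSA4/SSA2 a floor of 100 reads left too few libraries and gave no value. The count test in edgeR was not run, since the values are log2 RPM without the genes under 10 reads. No paired analysis was possible because the library numbers within windows follow sampling order and time points have no replicates. Depth limits SSA4 and HSP42 most, which no value shows in the shallow 45, 90 and 210 min libraries.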
